A study of Mus musculus with 8 samples.

Results

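Integrins are adhesion receptors made of an alpha and a beta chain. They carry dendritic cells through tissue, hold them to T cells and, in some pairs, take up complement-coated particles or release active TGF-beta. The 10 integrin genes described here encode chains known on dendritic cells: the CD18 family (Itgam, Itgax, Itgad and Itgal with their partner Itgb2), the CD103 pair (Itgae and Itgb7), and Itgav with Itgb8 and Itgb1. They are part of the integrin family; 17 other integrin chains are described further on. A peak belonged to a gene when its centre lay inside it or, if inside no protein-coding gene, when that gene was the nearest. By this rule 45 of 31473 peaks of cDC1 and 4 of 2776 peaks of cDC2 belonged to the 10 of 21887 protein-coding genes.

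The antibody was against DC-SCRIPT, which is encoded by Zfp366 and carries zinc fingers, and the cells were conventional dendritic cells sorted from spleens of female C57BL/6 mice. Binding was measured by CUT&Tag, in which the antibody directs a transposase to cut and tag DNA beside the bound protein. The groups were cDC1 of Zfp366-/- mice (2 libraries) and of wild-type mice (3 libraries), and cDC2 of Zfp366-/- mice (2 libraries) and of wild-type mice (1 library), each library made from a pool of mice. The cDC1 subset is known for cross-presentation to CD8 T cells and the cDC2 subset for priming CD4 T cells. Neither the age of the mice nor the deleted part of Zfp366 is stated in the labels. Each subset has 1 list of peaks, made from 1 combined set of knockout tags and 1 combined set of wild-type tags. No value can be traced to a single library, so none carries an error over mouse pools, and no test between genotypes was made. Zfp366 encodes the antibody's target, and the knockout sets were the control in peak calling. Knockout tags are therefore read as background of the assay, not as remaining binding. Whether any target protein remained was not measured here. Between the subsets, fewer bound cells and less binding per cell cannot be told apart in pools of cells. The 8 libraries are all CUT&Tag, so the sort was not checked here against marker expression.

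Normalised tags count the tags in a peak of 191 bp per 10000000 tags of its set. For cDC1, the knockout set comprised 12.1 M tags and the wild-type set 35.5 M. For cDC2, the knockout set comprised 6.83 M tags and the wild-type set 4.77 M. The lowest knockout value listed, 0.5 tag, also stands for no tag. It corresponds to 0.412 normalised tags for cDC1 and 0.733 for cDC2. The fold of a peak is the authors' own and divides wild-type by knockout tags after scaling for depth, so a fold above 1 means less signal in the knockout. The wild-type tags behind the fold were deposited apart from the normalised tags and differ from them at some peaks. The printed normalised tags therefore need not give the printed fold exactly. Ranks by wild-type tags use the normalised tags. Its exact 95% interval covers counting error only. Where the knockout was at 0.5 tag, only the exact lower 95% limit is given. It was computed as for no knockout tag and would be lower if a tag were present. Both lists hold only peaks with a fold of at least 4, so every listed peak is lower in the knockout by construction, and the intervals take no account of that choice. Coordinates are those of mouse build GRCm38.

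All 10 integrin genes had at least 1 cDC1 peak, where 51.4% of all protein-coding genes had one. Among the 7896 genes whose length lies within the range of the 10 (17.4 kb to 84.6 kb), the share was 64.7%. In cDC2 the genes with a peak were Itgam and Itgax, 2 of 10, where the share was 9.54% of all genes and 11.4% of those in the length range. Itgav and Itgb1 had 8 cDC1 peaks each, a number reached by 3.39% of all genes. Itgam followed with 7, Itgal with 6, Itgae and Itgb2 with 4 each, Itgax with 3, Itgb7 and Itgb8 with 2 each and Itgad with 1. The median was 4 peaks over the 10 genes and 1 over all genes. Neither the 3.39% nor the median over all genes was matched for gene length. Itgav is the longest of the 10 genes, and 3 of the 8 Itgb1 peaks lay inside the gene. Of the 45 peaks, 29 were centred inside the genes, a density of 6.23 peaks per 100 kb of gene against 1.68 over all protein-coding genes.

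The integrin peaks of cDC1 had a median of 1.65 normalised tags in the knockout and 18.0 in wild type, and over the whole list these medians were 1.65 and 15.5. With peaks at the lowest knockout value taken at their listed fold, the median fold was 11.7, against 10.2 over the list. Their median fold over the surrounding 10 kb of wild-type signal was 5.33, against 6.65. By wild-type tags, 8 of the 45 peaks (17.8%) stood in the highest 10% of the list. These were the highest peaks of Itgam, Itgae, Itgb2, Itgax, Itgav and Itgal and 2 peaks of Itgb1. The knockout was at its lowest value at 8 peaks (17.8%), against 20.1% over the list. The fold was at least 8 at 32 of the 45 peaks, where 63.9% of the list reached it, and at 1 of the 4 cDC2 peaks, where 45.5% did. The lower limit of the fold was at least 4 at 12 of the 45 peaks and at none of the 4 cDC2 peaks. The share over the whole lists is not given here, so these counts describe no trait of the integrin peaks. The limit also depends on the number of tags, and the 4 cDC2 peaks held 8 to 22.5 wild-type tags.

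**Figure D1:**
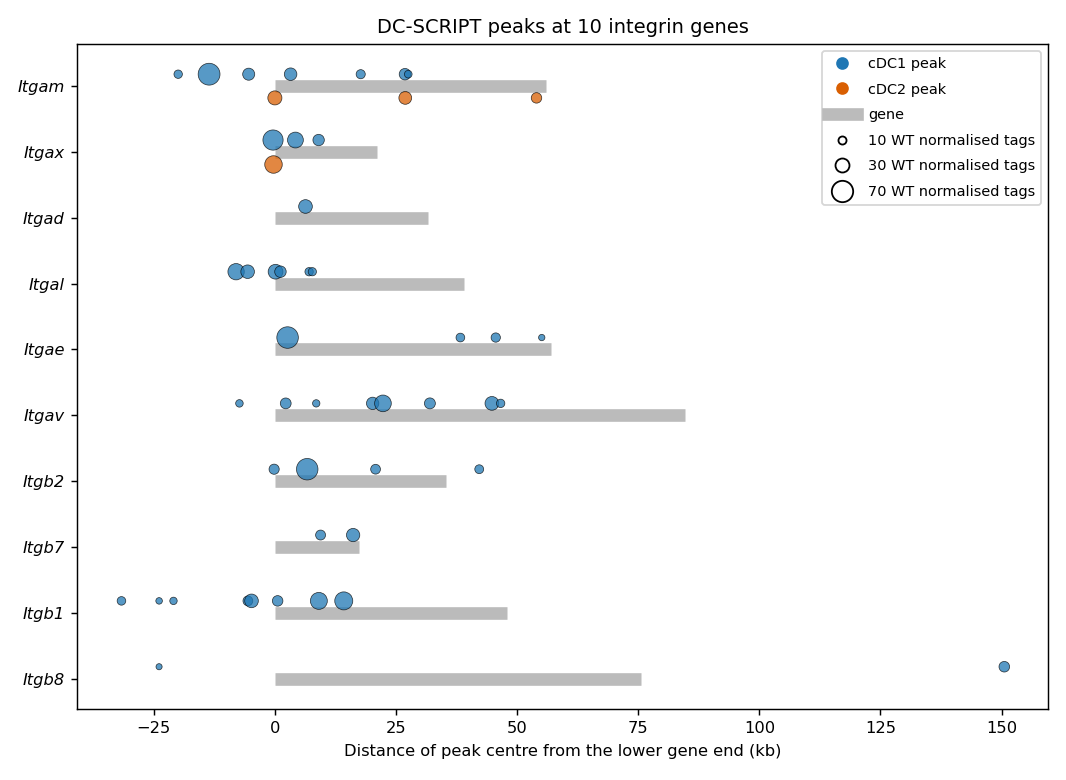
Peak centres at the 10 integrin genes, in kb from the lower gene end by coordinate (x axis), with one row per gene. Grey bars are genes, circles above a bar are cDC1 peaks and circles below it are cDC2 peaks, and circle area follows wild-type normalised tags. Each gene except Itgb8 has a cDC1 peak inside it, and the 4 cDC2 peaks lie at Itgam and Itgax.

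**Figure D2:**
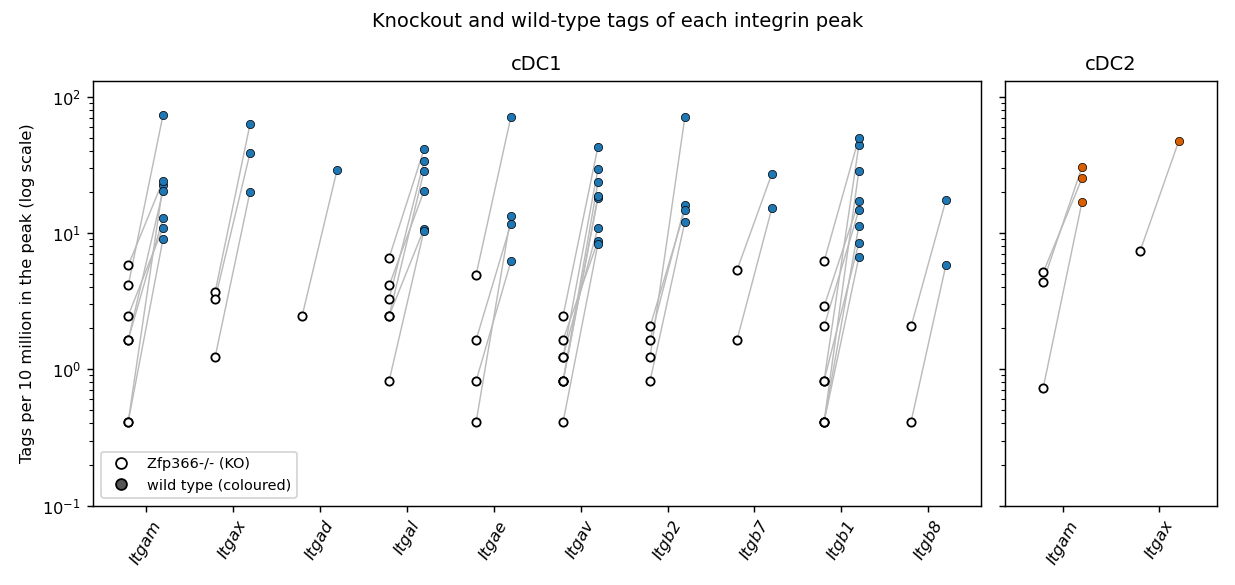
Normalised tags (per 10000000, log scale) of each integrin peak in knockout (open circles) and wild type (filled circles), joined by a line, per gene, for cDC1 and cDC2; circles of equal value lie on each other. Knockout values reach 6.59 in cDC1 and 7.33 in cDC2, and wild-type values run from 5.78 to 73.2 in cDC1 and from 16.8 to 47.1 in cDC2. Each circle is 1 combined set of tags, with no replicate error.

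Itgam, Itgax and Itgad are neighbours on chromosome 7 and are discussed together. They fill 142.9 kb (chr7:128062640-128205504) with no other protein-coding gene lying wholly within it, and the gaps between them are 11.04 kb and 23.3 kb. Peaks between them could therefore belong to either neighbour, and the assignment goes by distance alone. The 3 genes together carried 11 cDC1 peaks and all 4 cDC2 peaks. Itgal lies on the same chromosome, 727.5 kb below Itgam.

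Itgam encodes CD11b, the alpha chain of complement receptor CR3, which is a surface marker of cDC2. Its 7 cDC1 peaks ran from 19.997 kb before the start site to 27.5 kb after it. The highest, at chr7:128048929-128049119, lay 13.6 kb before the start and held 4.12 normalised tags in the knockout and 73.2 in wild type. Its fold was 17.7 (95% interval 7.50 to 55.0), and it ranked 501 of the 31473 cDC1 peaks by wild-type tags, the highest rank among the 45 peaks of the 10 genes. This site, the highest of the 45 by wild-type normalised tags, lay outside the gene, in the 51.2 kb between Trim72 and Itgam. The peak 5.44 kb before the start (chr7:128057108-128057298) held 0.412 knockout and 22.3 wild-type normalised tags, and the lower limit of its fold was 7.16. The peak 3.21 kb after the start held 5.77 knockout and 24.2 wild-type tags, with a fold of 4.20 (95% interval 1.95 to 10.8). It is close to the required fold, and its knockout signal was the highest among the Itgam peaks. No cDC1 peak was listed between these last 2 places, so the start site itself carried none.

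Of the 3 cDC2 peaks at Itgam, 1 stood at the place of a cDC1 peak. The highest cDC2 peak, at chr7:128062511-128062701, covered the start site, with its centre 34 bp before it. It held 3 knockout tags and 14.5 wild-type tags, which is 4.396 normalised tags in the knockout and 30.4 in wild type, and its fold was 6.91 (95% interval 2.02 to 38.5). The nearest cDC1 peak was centred 3.25 kb away. The shared one, 26.9 kb after the start (chr7:128089433-128089623), overlapped a cDC1 peak by 132 bp. At that shared place the cDC1 sets held 1.65 knockout and 20.4 wild-type normalised tags, with a fold of 12.4 (95% interval 3.29 to 103.6), and the cDC2 sets held 5.13 and 25.1, with a fold of 4.90 (95% interval 1.30 to 18.2). The remaining peak, at chr7:128116527-128116717, lay 1.87 kb below the upper end of the gene and rested on 8 wild-type tags. It held 0.733 knockout and 16.8 wild-type normalised tags, the lower limit of its fold was 2.44, and the nearest cDC1 peak was centred 12.5 kb away.

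The 250 bases before the Itgam start site (chr7:128062390-128062639, plus strand, RefSeq, GRCm38.p6) are shown because the cDC2 peak covers the last 129 of them. Capitals mark matches to the motifs listed further on.
Itgam: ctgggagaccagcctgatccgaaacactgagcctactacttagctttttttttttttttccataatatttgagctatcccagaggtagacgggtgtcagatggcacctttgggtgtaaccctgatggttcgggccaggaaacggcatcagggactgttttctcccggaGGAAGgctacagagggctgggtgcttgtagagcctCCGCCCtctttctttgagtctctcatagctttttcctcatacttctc
The capitals are an ETS core 82 to 78 bases before the start and a GC box 47 to 42 bases before it, both under the cDC2 peak.

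Itgax encodes CD11c, the surface protein by which dendritic cells are usually recognised. It was the one member whose highest peak stood at the same place in both subsets. In cDC1 this peak (chr7:128129014-128129204) was centred 441 bp before the start site and held 3.71 normalised tags in the knockout and 62.6 in wild type, a fold of 16.9 (95% interval 6.41 to 47.2). In cDC2 the peak (chr7:128129039-128129229) was centred 416 bp before the start and held 7.33 in the knockout and 47.1 in wild type, a fold of 6.43 (95% interval 2.44 to 22.1). The peaks overlapped by 166 bp, and the intervals of the 2 folds overlap widely. This cDC2 peak ranked 254 of 2776 by wild-type tags. Further cDC1 peaks lay 4.19 kb and 8.98 kb inside the gene. They held 3.30 and 1.24 knockout tags and 38.5 and 20.0 wild-type tags (normalised), and cDC2 had no listed peak there.

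The cDC2 peak before the Itgax start was centred farther out than that at the Itgam start, 416 bp against 34 bp. The Itgax peaks ended 346 bases before the start in cDC1 and 321 bases before it in cDC2, so none of the 250 bases next to the start (chr7:128129300-128129549, plus strand, RefSeq, GRCm38.p6) was covered.
Itgax: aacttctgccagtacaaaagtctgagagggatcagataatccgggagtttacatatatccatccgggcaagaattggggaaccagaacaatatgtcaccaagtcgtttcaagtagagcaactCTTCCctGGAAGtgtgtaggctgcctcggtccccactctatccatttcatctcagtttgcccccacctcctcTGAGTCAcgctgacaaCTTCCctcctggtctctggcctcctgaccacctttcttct
Here the capitals are an AP-1 motif 56 to 50 bases before the start and 3 ETS cores, which begin 128, 121 and 40 bases before it. The stretch is shown as the uncovered counterpart of the Itgam sequence.

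Itgad encodes CD11d, a CD18 partner found mainly on macrophages. Its single cDC1 peak, at chr7:128180121-128180311, lay 6.28 kb inside the lower gene end and within Gm39091, annotated as a long noncoding RNA. It held 2.47 normalised tags in the knockout and 28.8 in wild type, with a fold of 11.7 (95% interval 3.87 to 57.3). No other peak was nearest to Itgad.

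**Figure D3:**
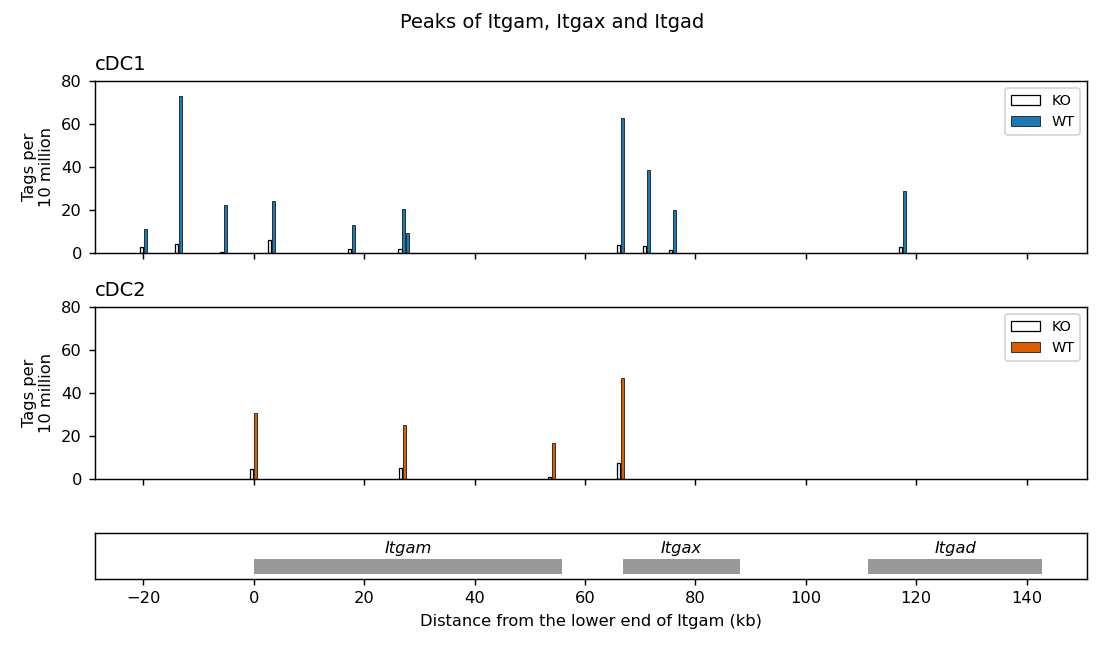
Normalised tags at the peaks of Itgam, Itgax and Itgad in kb from the lower end of Itgam, for cDC1 (top) and cDC2 (middle), with the genes below. Open bars are knockout and filled bars wild type, drawn side by side at each peak centre; the 2 cDC1 peaks near 27 kb partly cover each other. The tallest cDC1 bar (73.2) stands below Itgam, where cDC2 has no listed peak. Both subsets have a peak shortly before the Itgax start (62.6 and 47.1).

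Itgal encodes CD11a, which with CD18 forms LFA-1, the receptor that binds ICAM proteins on T cells. Its 6 cDC1 peaks lay close together around the lower gene end, from 8.04 kb below it to 7.70 kb inside. The highest, at chr7:127288002-127288192, held 6.59 normalised tags in the knockout and 40.9 in wild type. Its fold was 6.22 (95% interval 3.06 to 14.6), and its knockout value was the highest at any of the 45 cDC1 peaks. The next peak, 0.104 kb inside the gene (chr7:127296148-127296338), held 3.30 knockout and 33.4 wild-type tags, with a fold of 10.2 (95% interval 3.87 to 38.0). Of the pair below the gene, both lay within the long noncoding RNA gene Gm31897. Start sites of Itgal, Itgad, Itgb2 and Itgae were not used here, so positions at these genes are given from the lower end by coordinate.

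Itgb2 encodes CD18, the chain that all 4 of these alpha chains need to reach the surface. Its 4 cDC1 peaks were dominated by 1 inside the gene, at chr10:77536880-77537070, 6.65 kb from the lower end. The knockout set had 1.5 tags there, which is 1.24 normalised tags, against 70.9 in wild type. The fold there rests on 267.2 wild-type tags, more than the 259.3 behind the fold of the highest Itgam peak. The fold of 61.0 (95% interval 12.5 to 379.0) was the highest of the 10 leading cDC1 peaks, with a wide interval because so few knockout tags were counted. The other Itgb2 peaks, 0.188 kb below the gene, 20.8 kb inside it and 6.78 kb beyond the upper end, held 0.824 to 2.06 knockout and 12.1 to 15.9 wild-type tags.

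**Figure D4:**
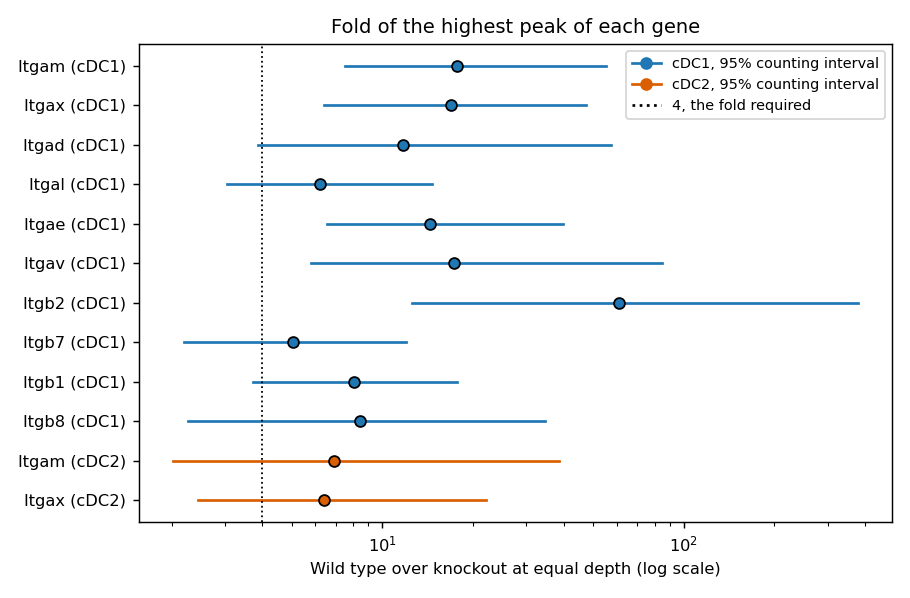
Fold of wild type over knockout at equal depth (log scale) for the peak with the most wild-type tags of each gene, with exact 95% counting intervals. The dotted line is the fold of 4 that the authors required. Itgb2 in cDC1 has the highest fold (61.0) and Itgb7 in cDC1 the lowest (5.07), and most of the intervals overlap.

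Itgae encodes CD103, a marker of cDC1 that binds E-cadherin when paired with the chain encoded by Itgb7. All 4 of its cDC1 peaks were centred inside the gene. The highest, at chr11:73093001-73093191, lay 2.59 kb from the lower gene end and held 4.95 normalised tags in the knockout and 71.2 in wild type, with a fold of 14.4 (95% interval 6.54 to 39.7). The other Itgae peaks were far weaker, at 0.412 to 1.65 knockout and 6.20 to 13.3 wild-type tags. Of these, the peak at chr11:73135979-73136169 is also inside Haspin, a kinase gene that overlaps Itgae. Itgae had no cDC2 peak.

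Itgb7 is the shortest of the 10 genes and had 2 cDC1 peaks. One (chr15:102232020-102232210) covered bases from 275 to 85 before the RefSeq start site, within the annotated span of the gene, and held 5.36 normalised tags in the knockout and 27.2 in wild type. Its fold of 5.07 (95% interval 2.19 to 11.98) was the lowest among the leading cDC1 peaks. The other, 6.54 kb after the start, held 1.65 knockout and 15.2 wild-type tags, with a fold of 9.23 (95% interval 2.44 to 78.2). Rarg, a retinoic acid receptor gene, lies 1.53 kb beyond the upper end of Itgb7. The 250 bases before the start (chr15:102231936-102232185, minus strand, RefSeq, GRCm38.p6) are shown because the cDC1 peak covers the first 166 of them.
Itgb7: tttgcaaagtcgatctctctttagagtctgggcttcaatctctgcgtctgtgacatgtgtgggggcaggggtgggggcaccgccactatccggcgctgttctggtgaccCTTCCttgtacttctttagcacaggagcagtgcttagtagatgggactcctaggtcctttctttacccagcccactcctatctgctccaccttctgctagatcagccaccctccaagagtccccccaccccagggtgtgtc
The capitals are an ETS core on the opposite strand, 141 to 137 bases before the start and under the peak.

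Itgav encodes CD51, a chain that pairs with several beta chains. With the product of Itgb8 it forms the receptor by which dendritic cells activate latent TGF-beta. Itgav carried 8 cDC1 peaks, spread from 9.445 kb before the start site to 44.5 kb after it. The highest, 20.2 kb after the start (chr2:83744490-83744680), held 2.47 normalised tags in the knockout and 42.7 in wild type, with a fold of 17.3 (95% interval 5.78 to 84.4). It lies within the pseudogene Dnmt3l-ps1, and how reads from repeated sequence were placed is not stated in the labels. The next, 42.7 kb after the start (chr2:83766983-83767173), held 1.24 knockout and 29.2 wild-type tags, with a fold of 23.6 (95% interval 4.75 to 147.4). A peak centred 114 bp after the start held 0.824 and 18.0, with a fold of 21.9 (95% interval 3.79 to 878.1). Knockout values at the 8 peaks ran from 0.412 to 2.47 and wild-type values from 8.32 to 42.7.

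Itgb8 differed from the other members in that no peak lay inside it. One of its 2 cDC1 peaks, at chr12:119313272-119313462, stood 75.1 kb before the start site, within the long noncoding RNA gene Gm39562. It held 2.06 normalised tags in the knockout and 17.3 in wild type, with a fold of 8.41 (95% interval 2.27 to 34.7). The other lay 23.9 kb beyond the far end of the gene and was the weakest of the 45 peaks, at 0.412 knockout and 5.78 wild-type tags. Both count for Itgb8 only because no protein-coding gene is nearer; with peaks limited to 10 kb from a gene it had none.

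Itgb1 encodes CD29, the partner of many alpha chains that bind matrix proteins and VCAM-1. Its 8 cDC1 peaks ran from 31.7 kb before the start site to 14.2 kb after it. The highest, at chr8:128699748-128699938, held 6.18 normalised tags in the knockout and 49.8 in wild type, with a fold of 8.04 (95% interval 3.74 to 17.7). The peak 9.05 kb after the start (chr8:128694605-128694795) was almost as high in wild type and much lower in the knockout, at 0.824 against 44.1. Its fold was 54.0 (95% interval 9.56 to 2148), and the wide interval stems from a single knockout tag. Before the gene, the peak at chr8:128680702-128680892 had the lowest knockout value, 0.412, against 28.6 in wild type, and its fold had a lower limit of 9.20. A peak 536 bp after the start held 2.88 and 17.1, with a fold of 5.91 (95% interval 1.94 to 19.8). The next protein-coding gene below Itgb1 is Nrp1, 180.2 kb away.

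Place within the genes was compared for those whose strand is known. Of 18 cDC1 peaks inside Itgam, Itgax, Itgav, Itgb1 and Itgb7, 16 lay in the first 50% of the gene from its start, where 65.7% of such peaks did over all genes. Of the 2 cDC2 peaks inside Itgam, 1 did, against 66.2% over all genes. Of the 6 promoter windows found in the promoter table (Itgam, Itgax, Itgav, Itgb1, Itgb7 and Itgb8), 250 bases before to 50 after the start, a cDC1 peak overlapped 2, those of Itgav and Itgb7. Over all windows of protein-coding genes the share was 21.9%. A cDC2 peak overlapped 1 of the 6, that of Itgam, where the share over all windows was 1.27%. With 6 windows, 1 gene more or fewer moves each share of windows greatly, and the 18 cDC1 peaks inside genes come from the few genes named.

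The 250 bases before the start were searched on both strands for 10 motifs. The ETS core GGAAG was in all 6 windows, and in 65.1% of the 21263 windows of protein-coding genes. The GC box GGGCGG was in those of Itgam and Itgb1 (42.6% of all windows), AP-1 TGANTCA in that of Itgax (6.13%) and the PU.1 motif GAGGAAGT, which contains the ETS core, in that of Itgav (2.23%). No match was found to the ETS-IRF composite, GGAA and GAAA with 2 bases between them (2.16% of all windows), the interferon response element, GAAA repeated after 2 bases (2.96%), RUNX TGTGGT (12.4%), the E-box CAGCTG (12.1%), C/EBP TTGCNNAA (9.09%) or NF-kB, GGGA and CC with 4 bases between them (19.6%). A match describes letters only. Sequences under the stronger peaks away from the start sites were not used here.

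The cDC1 peaks of all 10 integrin genes, 8 of which had no cDC2 peak, were compared with the depth of the cDC2 list. The lowest wild-type count listed in cDC2 was 6 tags, or 12.6 normalised tags. Of the 45 integrin cDC1 peaks, 31 reached that signal, as did 19322 of the 31473 peaks of the whole cDC1 list. Of the 45, 2 overlapped a cDC2 peak (5.61% over the list), and both were among the 31: the peaks shortly before the Itgax start and inside Itgam. Of cDC1 peaks with at least that signal, 8.42% did so over the list. Of the 8 integrin peaks in the highest 10% of cDC1, 1 overlapped a cDC2 peak, against 19.4% over the list. Scaled to the wild-type depth of cDC2, the highest cDC1 peak of Itgam would hold 34.95 tags, that of Itgae 34.0, that of Itgb2 33.9, that of Itgb1 23.8 and that of Itgax 29.9. The cDC2 set had 22.5 tags at its peak before the Itgax start and no listed peak at the other 4 places. Absence from a list does not say which of the limits was missed, since knockout and surrounding signal count as well. Peaks took up 6.47% of the cDC1 and 0.79% of the cDC2 wild-type tags. A difference between subsets was not tested at any gene, and a single wild-type library stands behind cDC2.

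Seen from the cDC2 list, 2 of the 4 integrin peaks overlapped a cDC1 peak, where 63.7% of all cDC2 peaks did. The 2 that did not, at the start and near the upper end of Itgam, held 14.5 and 8 wild-type tags.

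Other parts of the integrin system had peaks as well. For these further lists the shares are set beside all genes, without matching for gene length. In the length range of the 10 members the cDC1 share was higher than over all genes, 64.7% against 51.4%. Of 17 other integrin chains, 13 had a cDC1 peak (76.5%, against 51.4% of all genes) and 3 a cDC2 peak (17.6%, against 9.54%). The median was 2 cDC1 peaks per gene, against 1 over all genes. The highest-scoring were those of Itga4, the alpha chain of VLA-4 and of the gut-homing receptor formed with the Itgb7 product, and of Itga8, Itga3 and Itga6. The Itga4 peak, 27.5 kb outside the gene at chr2:79227862-79228052, held 2.88 normalised tags in the knockout and 84.6 in wild type, with a fold of 29.3 (95% interval 9.92 to 94.8). This exceeds the wild-type signal of every member peak. The leading peaks of Itga8, Itga3 and Itga6 held 2.06, 5.36 and 1.24 knockout and 45.3, 41.4 and 36.1 wild-type tags. They lay 22.1, 6.23 and 85.4 kb outside these genes. In cDC2, Itga4, Itgb3 and Itga9 had 1 peak each, at 3.66, 3.66 and 2.198 knockout and 34.6, 26.2 and 18.8 wild-type tags. The cDC2 peak of Itga4 lay 123.1 kb from the gene. Itga7, Itga11, Itgb4 and Itgb2l had no peak in either list.

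Among 29 genes of integrin activation and adaptor proteins, 22 had a cDC1 peak (75.9%, against 51.4% of all genes) and 6 a cDC2 peak (20.7%, against 9.54%). The median was 3 cDC1 peaks per gene, against 1 over all genes. In cDC1 the highest-scoring peaks were those of Vcl, Cytip, Lims1 and Ptk2b. Vcl encodes vinculin, which ties talin to actin, and its peak held 10.7 knockout and 66.8 wild-type normalised tags, with a fold of 6.23 (95% interval 3.58 to 11.9). Cytip encodes a partner of cytohesin-1 that loosens LFA-1 adhesion, and its peak held 4.95 and 68.9, with a fold of 14.1 (95% interval 6.38 to 38.7). Lims1, of the complex around integrin-linked kinase, and Ptk2b, the kinase PYK2, held 2.06 and 3.71 knockout and 59.6 and 54.8 wild-type tags. In cDC2 the leading gene was Apbb1ip, whose product RIAM links Rap1 to talin, at 5.86 knockout and 52.4 wild-type tags, and the fold there was 8.93 (95% interval 3.08 to 35.3). Fyb, Ptk2 and Ptk2b followed at 8.79, 5.13 and 7.33 knockout and 39.8, 32.5 and 31.4 wild-type tags. The leading cDC2 peaks of these 4 genes all overlapped a cDC1 peak. That of Apbb1ip lay 8.81 kb outside the gene and that of Ptk2 18.8 kb outside. Fermt3, which encodes the kindlin of blood cells, Rasgrp2 and Ilk were among the 7 genes with no cDC1 peak.

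Of 22 genes of ligands and of proteins that hold latent TGF-beta, 16 had a cDC1 peak (72.7%, against 51.4% of all genes) and 4 a cDC2 peak (18.2%, against 9.54%). The median was 1 cDC1 peak per gene, the same as over all genes. Icam1, the ligand of LFA-1, led in cDC1 at 5.36 normalised tags in the knockout and 71.3 in wild type, with a fold of 13.3 (95% interval 5.91 to 31.1), and had no cDC2 peak. Tgfb1 and both genes whose products anchor latent TGF-beta on cells, Lrrc32 and Nrros, had peaks in both subsets, at overlapping places. The leading peaks all lay outside the genes. In cDC1 and cDC2 they were 1.93 and 1.99 kb from Tgfb1, 32.9 and 33.0 kb from Lrrc32, and 5.4 kb from Nrros. In cDC1 these held 2.47 knockout and 57.7 wild-type tags at Tgfb1, 5.77 and 63.6 at Lrrc32, and 6.18 and 41.7 at Nrros. In cDC2 they held 12.5 and 60.7 at Tgfb1, 6.59 and 30.4 at Lrrc32, and 8.06 and 55.5 at Nrros. The fold at Tgfb1 was 23.4 in cDC1 (95% interval 7.89 to 114.3) and 4.96 in cDC2 (95% interval 2.21 to 11.4). Icam2 was the other ligand gene with a cDC2 peak, at 5.86 knockout and 25.1 wild-type tags. Of the same list, Ltbp1 had no peak in either subset and Tgfb3 had none in cDC2. Itgav and Itgb8 themselves had no peak in the cDC2 list.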

How the data were processed

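Titles gave the subset and genotype of each CUT&Tag library. The title and the pool number of 1 cDC2 knockout library differ (2 and 3), which changes no group. Replicates were mouse pools, per the labels. The authors deposited 2 tables of peaks called with HOMER findPeaks on 1 wild-type against 1 knockout tag directory, per the file headers (false discovery rate 0.001, fold of at least 4 and Poisson p of at most 0.0001 over knockout and over the surrounding 10 kb). Whether every library entered its directory, the aligner and the treatment of duplicates are not stated there. Of the putative peaks, 18.0% in cDC1 and 14.2% in cDC2 were kept, per the file headers.

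The deposited signal is wild-type tags per 10000000. The deposited tags behind the ratio (fold) are on the knockout depth (cDC1) or the wild-type depth (cDC2); they were brought to their own depths here, which also gave the knockout depths. The deposited score is HOMER's and ranks peaks within a list only. The deposited p-values are over tags, not replicates, and like the focus ratio, a fraction per the file headers, were not used. Tags are not independent molecules without molecular identifiers, so intervals cover counting error only. Clopper-Pearson intervals used tags rounded to whole numbers (scipy 1.17.1), which, with the assignment of peaks, were tested on simulated data.

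Genes were those of a RefSeq table (GRCm38.p6), without the mitochondrial ones; a centre inside several genes counts for each. The promoter table held 6 of the 10 members. The members, the gene lists, the motifs, the rule for named genes (all members, and up to 4 genes per list and subset with the highest-scoring peaks) and the alternatives were chosen with earlier results of these data known. Fermt3, Rasgrp2, Ilk, Tgfb3 and the genes with no peak were named after their values were seen.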

Additional observations from a re-analysis of the deposited data

How the results depend on the processing

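Counts were repeated with stricter limits, and the cause of each shift is the smaller set of peaks. The 45 cDC1 peaks became 38 within 10 kb of a gene, 29 inside the genes, 25 among the higher-scoring 50% of the list and 32 with a fold of at least 8. Over the whole cDC1 list, 24.6% of peaks lay more than 10 kb from a gene, 56.0% lay inside one and 63.9% had a fold of at least 8. All 10 genes kept a cDC1 peak at a fold of at least 8, and 9 did under each of the other limits, where Itgb8 had none. The shares of all genes that kept a peak under these limits are not given here. The 4 cDC2 peaks became 2 inside the gene, both of Itgam, and 1 with a fold of at least 8, at Itgam, so 1 gene was left in each case; the other limits left both genes, with 4 peaks and 3. The 2 shared cDC2 peaks stayed 2 with an overlap of 50% and with centres within 1 kb. Adding 0.5 or 1 tag to both genotypes brought the 12 leading folds to 0.606 to 0.949 of their values. Each stayed inside its interval, which says little because the intervals are wide. The largest shift was at Itgb2 in cDC1, from 61.0 to 37.0 with 1 tag added. No paired analysis was possible because the tables hold combined sets of tags, and for the same reason no replicate could be left out. The cDC2 wild-type values rest on 1 library of 4.77 M tags, and the part of depth in the number of cDC2 peaks was not tested.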
